A study of Xenopus laevis with 6 samples.

Results

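Smad proteins carry the signals of the TGF-beta family from the cell surface to the nucleus. This account follows the captured RNA of the genes listed by a Smad name in early Xenopus laevis embryos. Members were chosen by name, as all rows of the deposited gene table whose gene name starts with smad and a digit, with the L, S and tandem copies kept apart. The rule found 21 of 50489 rows, under 18 names: smad1, smad2, smad3, smad4.1, smad4.2, smad6, smad6.2, smad7 and smad9, each with an L and an S copy. No row was named smad5. The names smad1.S, smad4.2.L and smad4.2.S each stood on 2 rows, which were kept as separate rows and are told apart here by their level.

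All embryos were wild type, had received 10 nl of 50 mM 5-ethynyl uridine (EU) by injection as 1-cell embryos, about 0.5 mM in the embryo, and grew at 22 °C. EU is a uridine analogue that enters new RNA, and EU-labelled RNA was tagged with biotin, bound to streptavidin beads and sequenced after depletion of ribosomal RNA. The 3 groups of 2 libraries, all labelled blastula and the same batch, were untreated embryos at 5 hours post fertilization (control 5 hpf), untreated embryos at 7.5 hpf (control 7.5 hpf), and embryos treated from 5 hpf to 7.5 hpf with cycloheximide (CHX), a blocker of protein synthesis, at 0.2 mg/ml (CHX 7.5 hpf). All embryos came from 1 clutch, so p-values measure the spread between these samples, which may be technical. Whole embryos were used, so fewer cells of a type and less RNA per cell cannot be told apart.

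In the textbook pathway, ligands of the nodal and activin type act through receptors that phosphorylate Smad2 and Smad3, and BMP ligands act through receptors that phosphorylate Smad1 and its relative Smad9. These receptor-regulated Smads then join Smad4, the partner common to both branches, and enter the nucleus with DNA-binding cofactors. Smad6 and Smad7 are inhibitory: they compete at the receptors and recruit ubiquitin ligases. In the frog embryo the nodal branch induces mesoderm and endoderm and the BMP branch patterns the ventral side, both beginning around the time zygotic transcription starts, and egg-supplied Smad mRNA and protein are present before it.

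The deposited values appear to be read counts that the authors scaled per library and rounded, and they are called normalized values here. They summed to between 6680033 and 7742693 per library. By the spacing of low values, a single read counted for about 1.85 and 2.31 units at 5 hpf, for 1.18 and 0.687 in the 7.5 hpf controls and for 0.649 and 0.446 under CHX. By these estimates the 5 hpf libraries were the shallowest. The frequencies of low values predicted from the estimate fitted those observed closely at 5 hpf (correlation over values 0.958 in both) and looser in the 4 others (0.5 to 0.697), so their read numbers are approximate. The part of this depth difference in the results was not tested. The 2 control 7.5 hpf libraries stood apart from each other on the first principal component (replicate 1 at 109 and replicate 2 at 31.3, with 56.2% of the variance). The CHX libraries lay between them, at 82.5 and 49.1, so which of the 2 controls was the unusual library cannot be told. Of the 22 oocyte transcripts listed, all passed the filter, with summed values from 14050 to 17429. Whether these were carried-over egg RNA or newly made RNA of the same genes was not tested. Of 25 rows for genes of differentiated muscle, blood and lens, 21 were at 0 throughout. The 1 that was tested was the muscle creatine kinase gene ckm.L. It was at 0 and 0 at 5 hpf, 45 and 37 in the 7.5 hpf controls and 65 and 25 under CHX. It thus passed the filter through the 7.5 hpf libraries alone, and was called higher in both comparisons with 5 hpf (limma, adjusted p = 0.0117 and 0.0119).

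**Figure D1:**
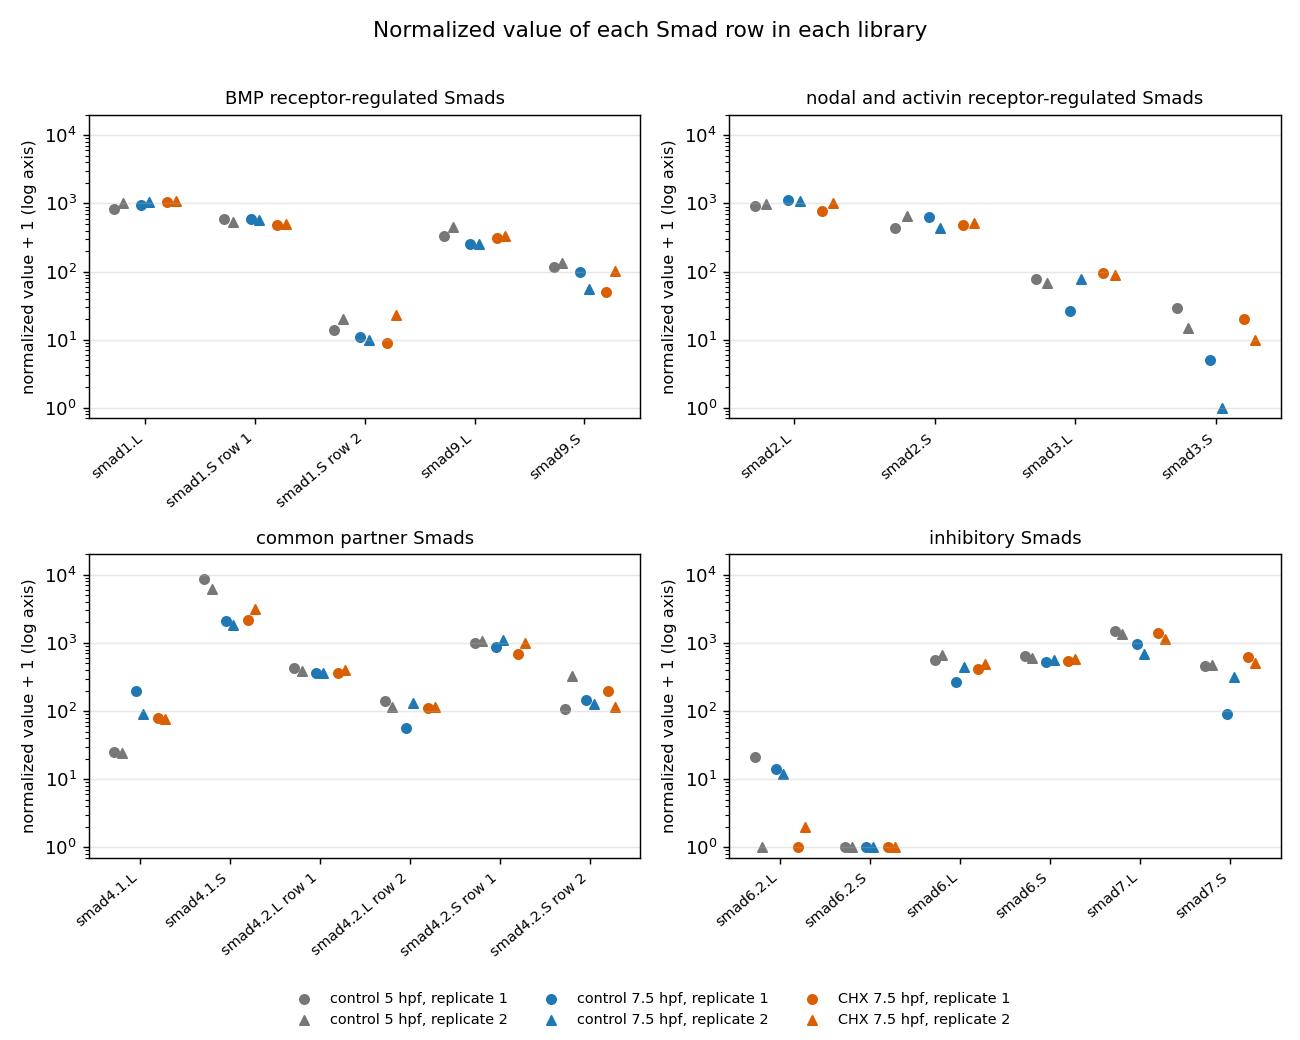
Normalized value plus 1 (log axis) of the 21 Smad rows in each of the 6 libraries, by role; circles are replicate 1, triangles replicate 2, grey control 5 hpf, blue control 7.5 hpf and orange CHX 7.5 hpf. Among the common partners, smad4.1.S drops from 8557 and 6096 at 5 hpf to 2087 and 1864 in the 7.5 hpf controls, while smad4.1.L goes from 24 and 23 to 196 and 89.

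Between 5 and 7.5 hpf in untreated embryos, the Smad changes that passed the test were a fall of smad4.1.S, a smaller fall of smad7.L and a rise of smad4.1.L. A gene was tested where its mean value was at least 11.9, about 10 reads, and 19 of the 21 Smad rows passed. Changes are given as log2 fold changes of the value plus 1, from limma over all 19149 genes tested (a scale that understates the change of low genes), and calls needed a p under 0.05 after Benjamini-Hochberg adjustment. Of the 19 rows 3 were called, where 6.61% of all genes tested were: 1 was called higher, against 5.9% of all, and 2 lower, against 0.715% (7 of the 19 had an unadjusted p under 0.05). Their median log2 fold change was -0.57, against 0.03 over all genes tested. With a scaling on oocyte transcripts instead, these medians became -0.34 and 0.26, and the number of Smad rows with a negative change went from 15 to 11 of 19. Both 7.5 hpf libraries lay below both 5 hpf libraries in 10 of the 19 rows, a pattern found in 20.5% of all genes tested, and above them in 2, against 25.6%.

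The BMP branch had abundant smad1 and less smad9. smad1.L, whose protein is the main BMP-regulated Smad of the early frog embryo, had values of 832 and 1006 at 5 hpf, 933 and 1044 in the 7.5 hpf controls, and 1052 and 1099 under CHX. The untreated groups overlapped, and both CHX libraries lay just above all others. Its log2 fold change from 5 to 7.5 hpf was 0.11, with a 95% interval from -0.24 to 0.46. The more abundant smad1.S row stood at 580 and 530, then 590 and 578, then 484 and 505, and its change over time was 0.07 (interval -0.29 to 0.44). The interval of each leaves out a doubling or a halving. The other smad1.S row, at 8 to 22 in all libraries, was too low to place (interval -2.93 to 1.58).

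smad9.L, which encodes a second BMP-regulated Smad, was at 333 and 455 at 5 hpf and at 249 and 250 in the 7.5 hpf controls. The untreated groups did not overlap, but the log2 fold change of -0.64 ± 0.22 was not called (limma, adjusted p = 0.138). After a log2 change, ± gives the SE from limma, with 2 libraries a group and a spread shared over all 6 libraries. Under CHX smad9.L stood between the untreated groups, at 314 and 331. smad9.S had 117 and 132 at 5 hpf, 98 and 55 in the later controls, and 49 and 102 under CHX, where the spread of the CHX pair covered the control pair. Its change in untreated embryos was -0.75 ± 0.49 (adjusted p = 0.448).

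In the nodal and activin branch smad2 was abundant and smad3 low, and no row of either was called in any comparison. smad2.L, the abundant receptor-regulated Smad of this branch, had 928 and 971 at 5 hpf, 1129 and 1091 in the 7.5 hpf controls, and 785 and 1025 under CHX. The 7.5 hpf controls lay above all other libraries, by a log2 fold change of 0.23 over 5 hpf (interval -0.14 to 0.59, adjusted p = 0.501) that was not called. smad2.S stood at 430 and 652, 632 and 432, and 484 and 508, with every group inside the range of the 5 hpf pair, and changed by -0.02 (interval -0.56 to 0.52).

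smad3.L had 76 and 67 at 5 hpf, 25 and 78 in the 7.5 hpf controls and 94 and 87 under CHX. Its change over time was set by control 7.5 hpf replicate 1: it was -0.68 ± 0.57 with that library and 0.13 without it. smad3.S was at 28 and 14, then 4 and 0, then 19 and 9, values that stand for an estimated 15 and 6 reads at 5 hpf and 3 and 0 reads in the later controls. Both untreated 7.5 hpf libraries were below the other 4, but the change of -3.22 ± 1.30 was not called (adjusted p = 0.205).

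**Figure D2:**
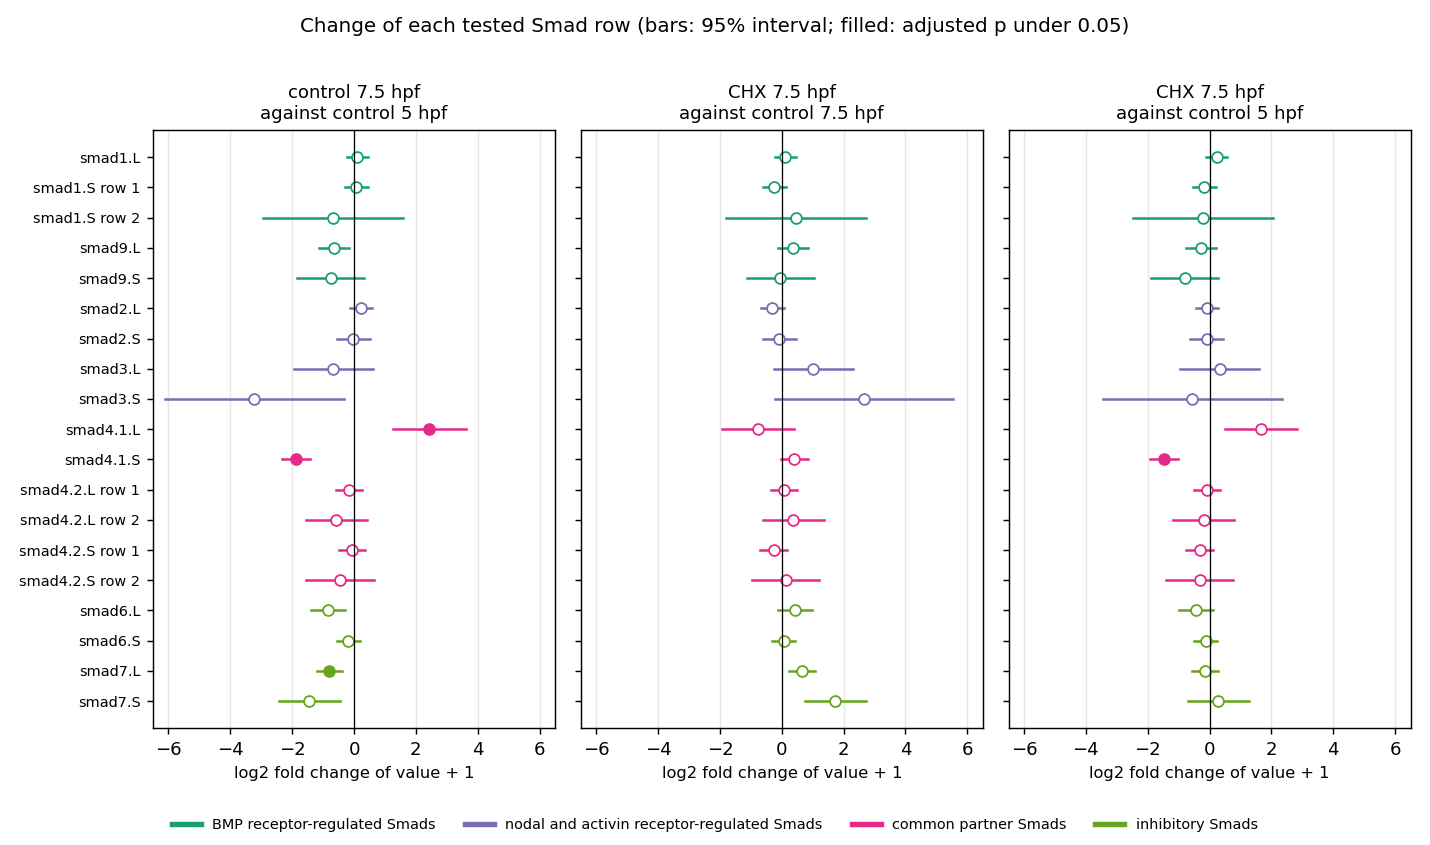
Log2 fold change of the value plus 1 for the 19 tested Smad rows in the 3 comparisons, with 95% intervals from limma; filled points had an adjusted p under 0.05, and colours give the role. In untreated embryos smad4.1.L (2.44) lies to the right and smad4.1.S (-1.87) and smad7.L (-0.80) to the left of 0, and no point is filled in CHX against control at 7.5 hpf.

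The common partner genes held 2 of the 3 rows called over time. smad4.1.S had normalized values of 8557 and 6096 at 5 hpf, 2087 and 1864 in the 7.5 hpf controls, and 2173 and 3156 under CHX. All 4 later libraries lay far below the 5 hpf pair, and the CHX pair lay above the later controls. The untreated means were 7326 ± 1740 and 1976 ± 158 (SD, n = 2). This 3.66-fold drop, -1.87 ± 0.20 on the log2 scale, was called (limma, adjusted p = 0.00027). It kept its call without any 1 of the 6 libraries, with a log2 fold change from -2.12 to -1.63, and lost it when the intensity trend was left out of the test (adjusted p = 0.0571). smad4.1.S alone made up 51.2% and 40.8% of the summed value of all Smad rows at 5 hpf, 22.6% and 20.2% in the 7.5 hpf controls, and 21.9% and 28.0% under CHX, on the scale of reads and not per length. The sum of the other 20 rows was 8168 and 8840, 7144 and 7360, and 7728 and 8100.

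The L copy of the same gene moved the other way. smad4.1.L had 24 and 23 at 5 hpf, 196 and 89 in the 7.5 hpf controls, and 79 and 75 under CHX. All later libraries lay above both 5 hpf libraries, where the values stand for an estimated 13 and 10 reads. In untreated embryos the log2 fold change was 2.44 ± 0.53 (adjusted p = 0.0191). The call was lost without a filter on low genes (adjusted p = 0.0597), without the intensity trend (0.0633), in a fit to the 2 groups alone (0.114), and without any 1 library but control 7.5 hpf replicate 2 (0.0719 to 0.165). The rise was small in reads beside the fall of the S copy: the sum of both copies was 8581 and 6119 at 5 hpf and 2283 and 1953 in the 7.5 hpf controls.

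smad4.2, the other frog Smad4 gene, showed no such change. Its larger S row had 993 and 1061, 880 and 1099, and 690 and 983 in the 3 groups, and its larger L row 423 and 384, 358 and 363, and 363 and 396. Their changes in untreated embryos were -0.06 (interval -0.49 to 0.37) and -0.16 (interval -0.58 to 0.26), intervals that leave out a change as large as that of smad4.1.S. The smaller L row, at 55 to 140, and the smaller S row, at 105 to 331, were not called in any comparison either.

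Of the inhibitory Smads, smad7.L was the row called over time. smad7.L, whose protein blocks both branches, had 1477 and 1352 at 5 hpf, 956 and 688 in the 7.5 hpf controls, and 1419 and 1140 under CHX. Both untreated 7.5 hpf libraries lay below the other 4, with a log2 fold change from 5 hpf of -0.80 ± 0.19 (adjusted p = 0.0282). That call was lost when libraries were scaled on oocyte transcripts (-0.57, adjusted p = 0.176), with no filter (0.113), without the trend (0.261), in the fit to the 2 groups alone (0.0953), and without any 1 library but control 7.5 hpf replicate 1 (0.0956 to 0.198).

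smad7.S had 453 and 471 at 5 hpf, 90 and 318 in the 7.5 hpf controls, and 625 and 510 under CHX. As for smad7.L the 7.5 hpf controls were lowest, but here both CHX libraries lay above both 5 hpf libraries. The lowest value was in control 7.5 hpf replicate 1. The change over time of -1.44 ± 0.45 was not called (adjusted p = 0.0936); it was -2.35 without control 7.5 hpf replicate 2 (adjusted p = 0.00224) and -0.54 without replicate 1.

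The other inhibitory gene, smad6, is known as an antagonist mainly of the BMP branch. smad6.L had 562 and 668 at 5 hpf, 262 and 438 in the 7.5 hpf controls and 420 and 492 under CHX, a change over time of -0.85 ± 0.25 that was not called (adjusted p = 0.0751; 0.0186 without control 7.5 hpf replicate 2). smad6.S, at 634 and 590, 519 and 558, and 539 and 588, changed by -0.18 (interval -0.55 to 0.18). smad6.2.L was listed between 0 and 20 and smad6.2.S at 0 in every library, and these were the 2 rows that did not pass the filter.

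Under CHX, none of the 19 tested Smad rows was called against untreated embryos of the same age (limma). Of all genes tested 0.554% were called there. An unadjusted p under 0.05 was found in 2 of the 19 and in 1576 of all 19149. The 2 rows were the smad7 copies, which lay above the controls in both CHX libraries. smad7.S was higher by a log2 fold change of 1.73 ± 0.45 (interval 0.74 to 2.72, adjusted p = 0.218) and smad7.L by 0.65 ± 0.19 (interval 0.24 to 1.06, adjusted p = 0.294). Without control 7.5 hpf replicate 2 the smad7.S difference was 2.64 and called (adjusted p = 0.011), and without replicate 1 it was 0.83. Both CHX libraries lay above both controls in 7 of the 19 rows, against 19.6% of all genes tested, and below them in 3, against 18.1%.

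Among the other rows the difference between CHX and control at 7.5 hpf was 0.41 (interval -0.04 to 0.86) for smad4.1.S and -0.77 (interval -1.94 to 0.40) for smad4.1.L. For smad1.L it was 0.12 (interval -0.22 to 0.47), for smad2.L -0.31 (interval -0.67 to 0.06) and for the larger smad4.2.S row -0.26 (interval -0.69 to 0.17). These 3 intervals leave out a doubling or a halving. For smad3.S, at 4 and 0 against 19 and 9, the interval ran from -0.23 to 5.55 and leaves such a difference undecided.

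Set against the 5 hpf start, 1 of the 19 rows was called under CHX, where 6.01% of all genes tested were: it was called lower, against 0.256% of all, and none was called higher, against 5.75% (limma; 2 of the 19 had an unadjusted p under 0.05). That row was smad4.1.S, whose CHX mean was 2664 ± 695 (SD, n = 2), lower by a log2 fold change of -1.46 ± 0.20 (limma, adjusted p = 0.00132). The call was lost without CHX replicate 1 (adjusted p = 0.125) and without the intensity trend (0.105). smad4.1.L was higher by 1.67 ± 0.53 (adjusted p = 0.111), and both CHX libraries exceeded both 5 hpf libraries. Library weights were the only alternative setting in which that row was called (adjusted p = 0.043). The smad7 copies stood near their 5 hpf level, at -0.15 (interval -0.56 to 0.26) for smad7.L and 0.29 (interval -0.70 to 1.28) for smad7.S. This comparison shares its 5 hpf libraries with the one in untreated embryos, so the fall of smad4.1.S in both is not an independent repeat.

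**Figure D3:**
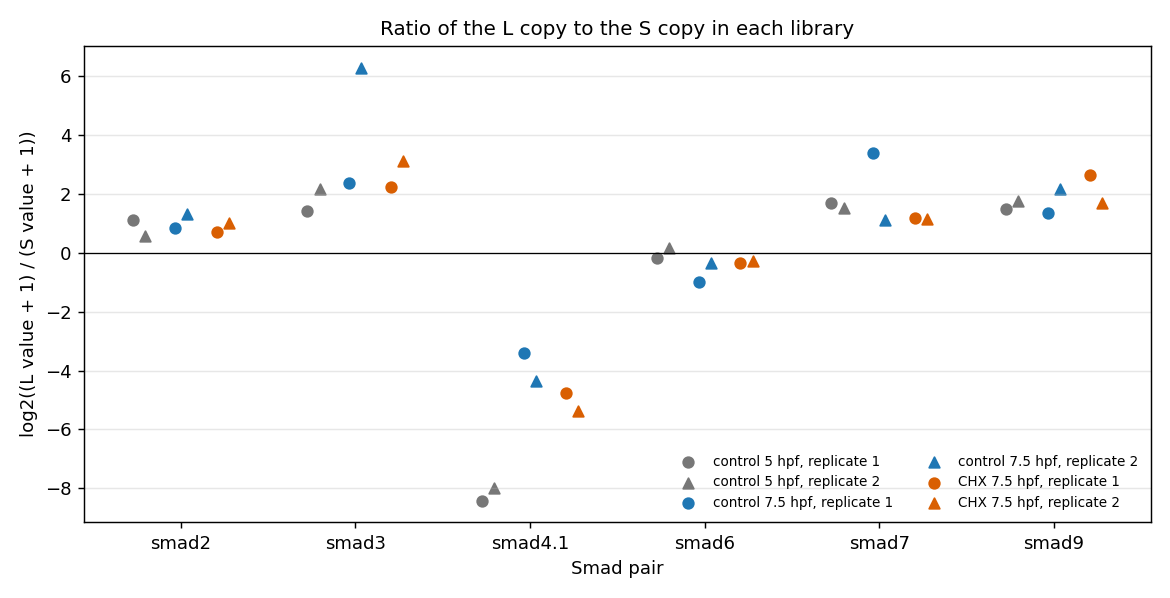
Log2 ratio of the L copy to the S copy, each as value plus 1, in each of the 6 libraries for the 6 Smad pairs tested; symbols and colours are as in the plot of values. The smad4.1 ratio goes from -8.42 and -7.99 at 5 hpf to -3.41 and -4.37 in the 7.5 hpf controls and -4.76 and -5.38 under CHX, while in the other pairs the groups overlap or lie close together, with the outlying points being smad3 in control 7.5 hpf replicate 2 and smad7 in control 7.5 hpf replicate 1.

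Xenopus laevis is an allotetraploid, with an L and an S copy of many genes from its 2 parental subgenomes, and the ratio of the copies was tested in limma over 4747 pairs. Of these, 77 changed in ratio between 5 and 7.5 hpf in untreated embryos (1.62%), 79 between 5 hpf and CHX (1.66%) and none between CHX and control at 7.5 hpf (256 had an unadjusted p under 0.05). smad4.1 was 1 of the pairs called: its log2 L to S ratio rose by 4.31 ± 0.35 in untreated embryos (adjusted p = 1.2e-05) and by 3.13 ± 0.35 under CHX (adjusted p = 0.00031). The 2 groups at 7.5 hpf differed by -1.18 ± 0.35 (limma, interval -1.94 to -0.42, unadjusted p = 0.00518, adjusted p = 0.761). This interval leaves out 0, though the difference was not called after adjustment. When 1 library was left out it ran from -1.66, without control 7.5 hpf replicate 2, to -0.70. The call under CHX was lost without CHX replicate 1 (adjusted p = 0.058) and with no intensity trend (0.0935). The test took its variance trend from the mean level of both copies, a choice made after the calls with a trend on the ratio itself had been seen. With a trend on the ratio the limma adjusted p was 0.419 in untreated embryos and 0.674 under CHX. With the trend chosen, the SE of 0.35 lies below the 0.53 of smad4.1.L alone. It may therefore understate the spread of this ratio, and the adjusted p values rest on it. Salmon divides reads between like transcripts, so the copies may share reads, and the ratio depends on how that was done.

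The remaining 5 Smad pairs were not called in any comparison. In untreated embryos the ratio changed by 0.24 (interval -0.32 to 0.81) for smad2, -0.67 (interval -1.27 to -0.06, adjusted p = 0.345) for smad6, 0.64 (interval -0.46 to 1.74) for smad7 and 0.11 (interval -0.99 to 1.21) for smad9. The smad7 ratio was 1.70 and 1.52 at 5 hpf, 3.39 and 1.11 in the 7.5 hpf controls and 1.18 and 1.16 under CHX, so that control 7.5 hpf replicate 1 alone stood high; the change was called without replicate 2 (1.78, adjusted p = 0.0018) and was -0.50 without replicate 1. For smad3 the interval was too wide to place the ratio (-0.47 to 5.56).

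**Figure D4:**
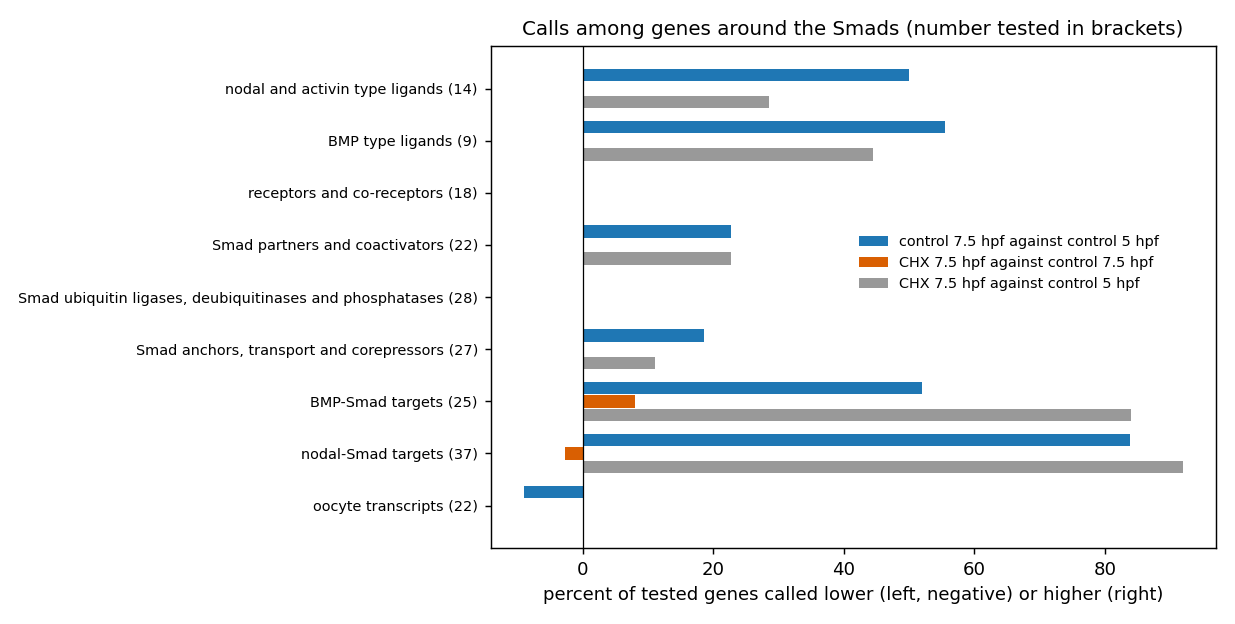
Percent of the tested genes of each list that limma called higher (right) or lower (left, negative) in the 3 comparisons, with the number tested in brackets. Target and ligand lists reach far to the right in both comparisons with 5 hpf, while the receptor list and the list of ligases, deubiquitinases and phosphatases have no bar.

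Around the Smads, called genes were found among ligands, partners, corepressors and targets. The lists share genes, so their counts are not separate observations. The filter used the mean of all 6 libraries, so genes at 0 at 5 hpf passed it through the later libraries alone. Such genes could hardly be called other than higher than at 5 hpf. Counts and medians of ligands, partners and targets against 5 hpf follow in part from this. The genes mixer and eomes are listed as partners and as nodal-Smad targets, and bambi stands with the corepressors and with the BMP-Smad targets. The list of nodal and activin type ligands held 25 rows, of which 14 were tested. Of these 14, 7 rose in untreated embryos and none fell, with a list median of 3.37, where 5.90% of all genes tested rose. nodal2.L was listed at 0 in both 5 hpf libraries and at 78 and 53 in the 7.5 hpf controls, and gdf3.S, the most abundant, went from 15 and 16 to 649 and 213 (log2 fold change 4.50 ± 0.58, adjusted p = 0.00085). Of 13 BMP type ligand rows 9 were tested, and 5 of these rose (median 3.01). Among them were bmp4.S, from 30 and 30 to 492 and 232 (3.45 ± 0.38, limma, adjusted p = 0.00029), and bmp7.2.L, the most abundant, from 111 and 132 to 2030 and 477. Under CHX bmp4.S was at 488 and 347, within the range of the controls, and nodal2.L was at 108 and 42. gdf3.S was lower under CHX, at 211 and 88 (log2 fold change against control -1.44, interval -2.73 to -0.15). For CHX against control the list medians were -0.73 for nodal and activin type ligands and 0.04 for BMP type ligands. No gene of either list was called there, where 0.554% of all genes tested were.

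None of 18 receptor and co-receptor genes was called in any of the 3 comparisons (limma), where 6.61%, 0.554% and 6.01% of all genes tested were for the change over time, CHX against control, and CHX against 5 hpf. In so short a list a count of 0 is near these shares and is not a result about receptors. The list had medians of -0.13, 0.13 and 0.02 in that order. The most abundant, acvr1b.S, which encodes a type I receptor for nodal and activin, stood at 1294 and 1344, 1044 and 1203, and 1211 and 1196. None of 28 genes for ubiquitin ligases, deubiquitinases and phosphatases acting on Smads was called either, a count to be read against the same shares, with medians of 0.05, -0.04 and 0.01; ctdspl.S, a phosphatase gene, was the most abundant, at 2609 to 4261 across libraries.

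Of 22 partner and coactivator genes 5 rose in untreated embryos and 5 under CHX against 5 hpf, with none lower, where 5.9% and 5.75% of all genes tested rose. foxh1.2.L, whose protein binds DNA together with Smad2 or Smad3 and Smad4, went from 30 and 42 to 3632 and 1622, and to 1722 and 1285 under CHX. mixer.S, a homeobox partner of Smad2, was listed at 0 at 5 hpf, at 850 and 372 in the later controls and at 181 and 53 under CHX, a difference that was not called (adjusted p = 0.338). The coactivator gene ep300.L stood at 5652 to 7310 throughout. Of 27 genes for anchors, transport factors and corepressors 5 rose over time and 3 under CHX against 5 hpf, beside the same shares of all genes, among them the corepressor gene tgif2.S, from 521 and 504 to 3169 and 1271, and bambi.L, which encodes a pseudoreceptor, from 113 and 153 to 601 and 335.

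Many but not all target genes of both branches were called higher than at 5 hpf, in untreated embryos and under CHX. For CHX against control at 7.5 hpf the list medians parted, at 0.77 for BMP-Smad and -1.03 for nodal-Smad targets, beside 0.02 over all genes tested. Summed values of the nodal-Smad targets were 42951 and 17974 in the 7.5 hpf controls and 14263 and 10085 under CHX. Those of the BMP-Smad targets were 31254 and 15407 in the controls and 34878 and 24268 under CHX, so these groups overlapped. In both lists the larger control sum was that of control 7.5 hpf replicate 1. Of 25 BMP-Smad target genes 13 rose in untreated embryos (median 3.44) and 21 under CHX against 5 hpf (median 5.93), where 5.9% and 5.75% of all genes tested rose. id3.L, a direct BMP target, was listed at 0 at 5 hpf, at 1301 and 525 in the controls and at 2124 and 1410 under CHX. The most abundant BMP-Smad target, id2.S, was not called in any comparison. It stood at 8543 and 7461 at 5 hpf, 8952 and 5234 in the controls and 7379 and 6020 under CHX. Against controls of the same age 2 of the 25 BMP target genes were called higher under CHX, where 0.198% of all genes tested were. msx1.L was at 637 and 418 where both controls were listed at 0. msx1.S was at 775 and 635 against 8 and 38 (log2 fold change 5.23, limma, adjusted p = 0.0363). At 5 hpf msx1.L was at 0 too, so it passed the filter through the CHX libraries alone. msx1.S, at 0 and 2 at 5 hpf, passed it mainly through them. The count of 2 is therefore no test of the list. Of 37 nodal-Smad target genes 31 rose in untreated embryos (median 6.32) and 34 under CHX against 5 hpf (median 5.45), and mix1.L alone was called lower under CHX than in controls, where 0.355% of all were, at 725 and 546 against 3610 and 1697 (adjusted p = 0.0254). No gene at all was called between CHX and control embryos of 7.5 hpf with no filter, or without control 7.5 hpf replicate 1, CHX replicate 1 or CHX replicate 2, so the msx1 and mix1.L calls were lost there. Of the 22 oocyte transcripts 2 fell in untreated embryos, where 0.715% of all genes tested did, zar2.S and wee2.L, by 0.55 and 0.54 on the log2 scale, and the list median was -0.16, beside -1.87 for smad4.1.S. The part of egg-supplied RNA in the value of smad4.1.S was not tested.

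The genes closest in profile to the called Smads were taken as those with the smallest root mean square difference of centred log2 values over the 6 libraries, among 15513 genes with a symbol. For smad4.1.S these were txndc15.L, unk.S, wdr77.S, maff.S and birc7.S, at 0.12 to 0.26 log2 units, against a standard deviation of 0.83 for the smad4.1.S profile itself. txndc15.L had values of 142 and 118, 34 and 34, and 42 and 49, and birc7.S, of the inhibitor of apoptosis family, 849 and 708, 244 and 318, and 323 and 358. Both had the high 5 hpf pair of smad4.1.S, which follows from choosing genes by their profile over these same 6 libraries. For smad4.1.L they were nrbf2.S, c17orf58.L, eef1a1.S, iqgap2.L and sema4g.L, at 0.10 to 0.17, with nrbf2.S going from 338 and 287 to 2361 and 1201 and to 1150 and 1051 under CHX. For smad7.L they were anxa2.S, nop16.S, enc1.S, tcea2.S and ccnl2.L, at 0.07 to 0.11, among which ccnl2.L, a cyclin L gene, had 309 and 312, 212 and 158, and 297 and 297. The smad7.L profile varied little (0.39), so closeness to it is a weak criterion.

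In the RefSeq annotation of the assembly Xenopus_laevis_v10.1, the smad4, smad7 and smad2 genes lie in that order on the same chromosome in both subgenomes, with 5 protein-coding genes between smad4 and smad7 and 4 (L) or 3 (S) between smad7 and smad2. The annotation holds smad4.1.L as a synonym, taken here as that of its smad4.L. smad4.1.S is matched to its smad4.S only by that correspondence of names. The genes next to smad4.L did not follow smad4.1.L: elac1.L had 179 and 132, 93 and 133, and 85 and 102, and lipg.L 324 and 287, 398 and 226, and 226 and 238. Next to smad4.S, me2.S had 276 and 370, 286 and 287, and 177 and 190, and lipg.S 400 and 319, 247 and 225, and 323 and 315. None of these 4 genes was called in any comparison, a count near the shares of all genes tested (6.61%, 0.554% and 6.01%). Over time lipg.S changed by -0.60 (interval -1.08 to -0.11) and me2.S by -0.16 (interval -0.69 to 0.37). For CHX against 5 hpf lipg.S changed by -0.16 (interval -0.65 to 0.32) and me2.S by -0.80 (interval -1.33 to -0.27). The sources used here do not say whether reads were counted by strand.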

How the data were processed

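EU-labelled RNA of 6 libraries was analysed from 1 gene table, and every value column was matched to a sample by name. The submitters' processing notes name Salmon 0.12.0 and DESeq2 as the authors' tools; settings, build and annotation are not stated there. Each deposited value was handled as a score, a read count that the authors appear to have scaled by a library's size factor and rounded, since low values are regularly spaced. Whole reads were not recovered, and estimated reads are values divided by that spacing.

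Log2(value + 1) was fitted with limma 3.58.1 in R 4.3.3 as a linear model of 3 groups over 6 libraries, with an intensity trend, 3 residual and 7.35 prior degrees of freedom, two-sided tests and adjustment over 19149 genes (mean value at least 11.9). L to S ratios were fitted likewise over 4747 pairs. The planned test for raw counts was not used because the values are no counts. The 15 of 18 Smad names found as RefSeq symbols, and 1 found as a synonym, were used for gene order alone; no sequence was used here. Scripts were tested on simulated data. Tables were made with Python 3.11.15, pandas 2.3.3 and numpy 2.4.6.

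Named genes were all Smad rows, from each list up to 3 called genes with the smallest adjusted p over time, up to 2 in each other comparison and the most abundant, the 5 closest profiles per called Smad, and, added later and by position alone, the genes next to smad4; not every gene admitted is printed. Members and lists were chosen with earlier results of these data known. Alternatives were other scalings, pseudocounts, filters, weights and fits, and leaving out each library.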

Additional observations from a re-analysis of the deposited data

How the results depend on the processing

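Each group had 2 libraries from 1 clutch, and the intervals of low Smad genes are wide. Of 1323 alternative values for 75 Smad rows and pairs, 1245 kept direction and side of the threshold, 24 lost and 9 gained a call, and 45 turned direction. Most of these rows and pairs were not called in the main fit, so the 1245 are mainly uncalled values that stayed uncalled. The 24 losses all fall on the few called ones. In 1 of the scalings, on a recomputed median ratio, the factor was 1.02 in every library, so it could change little. The total is therefore no measure of how firm the calls are. The cause of a lost, gained or turned value was not tested unless fewer samples or more genes tested give it.

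In untreated embryos 1266 genes were called. The count was 665 with no filter, 629 in a fit to the 2 groups alone, 649 with no intensity trend and 525 to 1999 without 1 library. The 3 Smad calls became 1 with no filter, 1 in the fit to 2 groups, 0 with no trend and 1 to 4 without 1 library. The 77 pairs became 36 with no filter, 34 in the fit to 2 groups, 25 with no trend, 28 with a trend on the ratio (added after seeing the data) and 34 to 245 without 1 library.

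For CHX against control at 7.5 hpf, 106 genes were called, against 52 with oocyte scaling, 220 with pseudocount 5, 0 with no filter, 47 with no trend and 0 to 204 without 1 library. Smad calls ranged from 0 to 1, and pairs from 0 to 56, without 1 library, and a strict filter gave 1 pair. For CHX against 5 hpf, 1150 genes became 671 with no filter, 703 with no trend and 79 to 1341 without 1 library. The 1 Smad call became 2 with library weights, 0 with no trend and 0 to 1 without 1 library. The 79 pairs became 32 with no filter, 130 in the fit to 2 groups, 148 with weights, 31 with no trend, 24 with the ratio trend and 13 to 130 without 1 library.

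Replicates of the same number were not treated as pairs in the main fit. Over all genes tested their differences correlated at 0.00795, -0.0198 and 0.13 between groups, the last between the 7.5 hpf groups. On the first principal component replicate 1 exceeded replicate 2 in both 7.5 hpf groups (109 against 31.3 in controls, 82.5 against 49.1 under CHX). The 5 hpf pair stood at -137 and -134. Whether replicates of the same number shared more than the number was not tested. With replicate number as a block (the replicate block) the untreated comparison gave 5 Smad calls and 139 pairs, with smad6.L (adjusted p = 0.02) and smad7.S (limma, adjusted p = 0.0385) added, and CHX against control gave 167 genes and 1 pair.

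The median of all genes over time was 0.03 as deposited, -0.11 with equal totals and 0.26 with oocyte scaling (CHX against 5 hpf: 0.02, -0.07 and 0.28). Oocyte scaling turned uncalled changes over time to 0.21 for smad2.S, 0.04 for smad6.S, 0.07 for the larger smad4.2.L row and 0.16 for the larger smad4.2.S row, and equal totals gave -0.07 for the larger smad1.S row and -0.03 for smad1.L. For CHX against 5 hpf oocyte scaling gave 0.16 for smad2.S, 0.17 for smad2.L, 0.09 and 0.02 for the larger and smaller smad1.S rows, 0.13 for smad6.S, 0.17 and 0.06 for the larger and smaller smad4.2.L rows and 0.10 for smad7.L.

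Leaving out 1 library also turned values that were not called with all libraries. Over time these ran from -1.48 to 0.13 for smad3.L, -0.32 to 0.28 for smad2.S, -1.27 to 0.37 and -0.22 to 0.10 for the smaller and larger smad4.2.S rows, -1.19 to 0.05 for the smaller smad4.2.L row and -0.03 to 0.25 for smad1.L. The ratios ran from -0.02 to 0.51 for smad2, -0.50 to 1.78 for smad7 and -0.30 to 0.52 for smad9. For CHX against control they ran from -0.35 to 0.20 for smad2.S, -0.26 to 0.52 and -0.24 to 0.99 for the smaller smad4.2.S and smad4.2.L rows, -0.22 to 1.13 for the smaller smad1.S row and -0.57 to 0.47 for smad9.S. The ratios there ran from -0.48 to 0.02 for smad2, -3.61 to 0.31 for smad3, -2.22 to 0.06 for smad7 and -0.06 to 0.91 for smad9. For CHX against 5 hpf they ran from -0.39 to 0.21 for smad2.S, -0.27 to 0.11 for smad2.L, -1.14 to 0.51 for the smaller smad4.2.S row, -0.89 to 0.46 for the smaller smad1.S row, -0.31 to 0.01 for smad7.L and -0.25 to 0.28 for the smad2 ratio.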
